A study of Mus musculus with 7 samples.

Results

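The 7 Schlafen genes described here are Slfn1, Slfn2, Slfn3, Slfn4, Slfn5, Slfn8 and Slfn9, out of 17920 genes measured in mouse spleen after lipopolysaccharide (LPS). The other 2 entries with a Schlafen symbol, Slfn14 and Slfnl1, were kept apart. The 7 were taken from the expression table by their symbols. The family was picked with its values in these libraries already known, so its levels and differences are given as a description, with no test. LPS is a component of the outer membrane of Gram-negative bacteria that sets off inflammatory and interferon transcription.

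The study set wild-type mice against GdX-/- mice (called GdX-/Y in the treatment protocol) to see how loss of GdX changes the spleen's transcripts after LPS. GdX is the product of the X-linked gene Ubl4a, a ubiquitin-like protein that helps to deliver tail-anchored proteins to membranes. All mice were labelled C57BL/6 and were 8 weeks old, and every group, the wild type included, received 20 mg/kg LPS into the peritoneum. Whether the genotypes match in strain background beyond that label was not tested. There were 2 wild-type and 2 GdX-/- libraries at 90 min after the injection, and 2 wild-type and 1 GdX-/- library at 6 h. The design text of the series counts as many mice as there are libraries, 4 wild-type and 3 GdX-/-. Spleen without LPS was not analysed here, so no level can be set against one before LPS. The labels name whole spleen as the tissue and splenocytes as the source, and do not say how GdX was deleted.

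Schlafen proteins share an N-terminal core with an AlbA-like fold and are known as interferon-inducible regulators of growth arrest, lymphocyte and myeloid development and, in some members, of RNA cleavage and virus restriction. They fall into short proteins that consist of little more than the core (Slfn1 and Slfn2), intermediate ones (Slfn3 and Slfn4) and long ones that carry a helicase-like C-terminal part (Slfn5, Slfn8 and Slfn9, with Slfn14). In immune tissue, type I interferon signals through the receptor chains Ifnar1 and Ifnar2 to transcription factors that bind the interferon-stimulated response element of target promoters.

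All 7 genes lie in one cluster on chromosome 11 (GRCm38, GENCODE M21 annotation). From low to high coordinates these are Slfn5 at chr11:82951349-82964840 on the plus strand, Slfn9 at chr11:82978390-82991830 and Slfn8 at chr11:83002158-83020810 on the minus strand, then Slfn2 at chr11:83065112-83070678, Slfn1 at chr11:83116849-83122670, Slfn4 at chr11:83175186-83190216 and Slfn3 at chr11:83191330-83215154, all on the plus strand. Slfn14, which is no member of the list, follows at chr11:83275110-83286726 on the minus strand. The coding sequences encode 337 residues in Slfn1, 378 in Slfn2, 602 in Slfn4, 640 in Slfn3, 884 in Slfn5, 899 in Slfn14 and 910 in both Slfn8 and Slfn9. Slfn3 and Slfn4 were 92.7% identical over 1785 aligned coding bases, and Slfn8 and Slfn9 were 92.7% identical over 2730, while Slfn5 was 64.4% identical to either of the latter.

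The stretches just before the transcript starts are shown because the motif matches differed between the long members of the list and the others. Sequences are those of RefSeq (GRCm38.p6), 5′ to 3′ on the strand of the gene, and capitals mark motif matches. Slfn5, Slfn8 and Slfn9 held the core of the interferon-stimulated response element, searched as a pair of GAAA blocks with any 2 bases between them on either strand. It is shown for Slfn5 in a stretch of 50 bases before the start of its RefSeq transcript, at chr11:82951932-82951981 on the plus strand, which lies inside the longer GENCODE span of the gene, and for Slfn9 and Slfn8 in the last 110 bases before the start, at chr11:82991831-82991940 and chr11:83020811-83020920 on the minus strand.
Slfn5: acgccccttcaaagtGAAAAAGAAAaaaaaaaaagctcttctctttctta
Slfn9: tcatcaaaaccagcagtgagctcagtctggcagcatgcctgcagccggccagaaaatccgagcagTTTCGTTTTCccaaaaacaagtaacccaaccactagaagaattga
Slfn8: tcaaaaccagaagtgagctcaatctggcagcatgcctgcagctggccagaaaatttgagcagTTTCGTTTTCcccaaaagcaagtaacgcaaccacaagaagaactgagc

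The short and intermediate members lacked that core in this window and held ACTTCCTG, an ETS-like motif whose letters were chosen after these promoters had been read. Slfn4 also held TGANTCA, the AP-1 motif, as did Slfn14, a long protein whose window had no response element core. The last 110 bases before the start lie at chr11:83065002-83065111 for Slfn2, chr11:83116710-83116819 for Slfn1, chr11:83175076-83175185 for Slfn4 and chr11:83191220-83191329 for Slfn3, all on the plus strand.
Slfn2: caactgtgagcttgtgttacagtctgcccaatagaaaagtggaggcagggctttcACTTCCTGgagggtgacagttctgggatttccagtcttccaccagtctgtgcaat
Slfn1: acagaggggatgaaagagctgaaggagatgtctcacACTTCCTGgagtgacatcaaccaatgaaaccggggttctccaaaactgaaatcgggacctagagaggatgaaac
Slfn4: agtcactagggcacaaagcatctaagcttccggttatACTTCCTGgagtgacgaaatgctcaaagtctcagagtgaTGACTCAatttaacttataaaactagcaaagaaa
Slfn3: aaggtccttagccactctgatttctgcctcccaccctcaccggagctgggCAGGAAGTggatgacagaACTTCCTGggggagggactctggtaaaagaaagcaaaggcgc

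All motifs were searched on both strands in the 250 bases before each start. Of 32851 such RefSeq windows, the response element core occurred in 2.98%, ACTTCCTG in 2.69% and TGANTCA in 6.75%. Since ACTTCCTG was picked from these promoters, its share is no background for its presence in them. The Slfn8 and Slfn9 stretches share most of their letters, so their matches are not separate. The kB-like motif, searched as GGG, any 2 bases, TT, any 1 base and CC, present in 4.11% of windows, matched once, in Slfn9, and TTCNNNGAA (GAS), present in 7.02%, matched none of the 7. A match is a string of letters and not a measured site, and no match says only that the letters are not in the window.

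**Figure D1:**
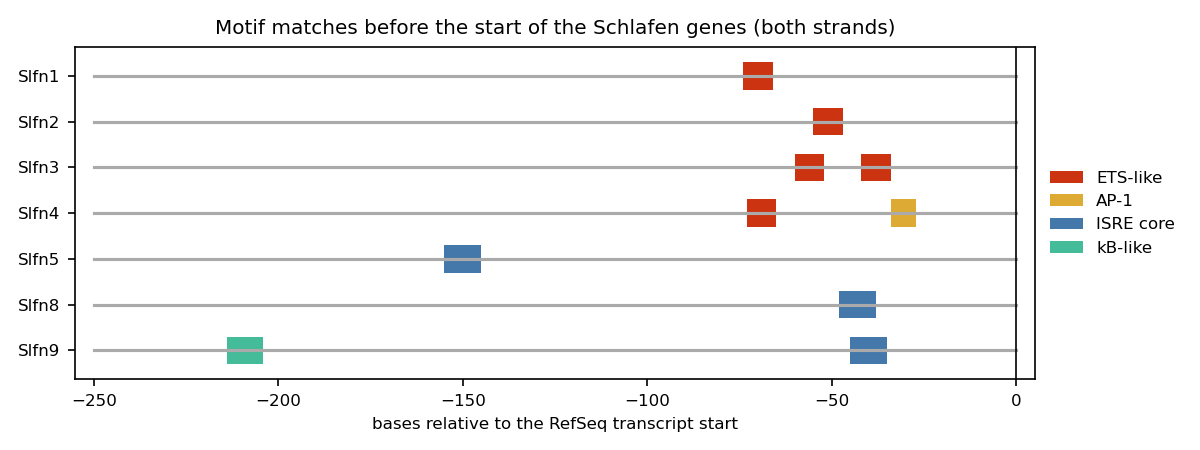
Motif matches in the 250 bases before the RefSeq transcript start of the 7 Schlafen genes (x axis, bases relative to the start; each grey line is 1 gene, each coloured block 1 match on either strand; Slfn8 at the upstream of its 2 RefSeq starts). The interferon-stimulated response element core is seen in Slfn5, Slfn8 and Slfn9, the ETS-like motif in Slfn1, Slfn2, Slfn3 and Slfn4, and the AP-1 motif in Slfn4. The ETS-like letters were chosen after these promoters had been read.

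RNA was measured as FPKM, fragment counts divided by transcript length and by the size of the library, which allows levels to be compared between genes. Differences below are on the scale of log2(FPKM + 1), and counts over all genes refer to the 11378 genes whose mean FPKM over the libraries reached 1, a filter that all 7 members passed. Depth, read from the steps between low values, was estimated at 18350000 to 20600000 fragments per library. At that depth between 147 and 358 fragments lay behind each Slfn3 value, 1049 to 24529 behind Slfn4 and 13019 to 35723 behind Slfn2. Markers of B cells, T cells, natural killer cells, red pulp macrophages and erythroid cells with a value in the table were above 0 in every library (the T-cell marker Trac was not analysed here). Ubl4a itself did not separate the genotypes at 90 min (5.62 and 7.50 FPKM in wild type, 4.03 and 5.69 in GdX-/-) and was 11.9 and 14.0 against 10.6 at 6 h. Gm44504, whose annotated span on chromosome X overlaps that of Ubl4a, was at 14.5 to 51.1 FPKM in the wild-type libraries and at 0.66 to 1.86 in those labelled GdX-/-.

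Some libraries stood apart from their replicates. The second GdX-/- library at 90 min had a summed FPKM of 7 neutrophil markers of 4710 against 993 in the first. The wild-type libraries at 6 h differed from each other at least 2-fold in 997 of the 11378 genes tested. Over the 11180 genes of known transcript length, the difference of the first from the second ran with that length (Spearman's rho of -0.591). It did so in wild type at 90 min too (-0.446), and less in GdX-/- at 90 min (-0.166). Genes are not independent replicates.

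Slfn2 was the most abundant member in all 7 libraries. It is a short member required to keep naive T cells quiescent. Its level was 1087 and 932 FPKM in wild type at 90 min, 784 and 762 in GdX-/- at 90 min, 594 and 477 in wild type at 6 h, and 402 in GdX-/- at 6 h. The 4 groups did not overlap: levels were highest in wild type at 90 min and lowest in the single GdX-/- library at 6 h, and at each time the GdX-/- libraries were the lower. The gene ranked between 105 and 166 from the top among 17920 genes in every library.

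Slfn4, an intermediate member expressed mainly in myeloid cells and known as an interferon-responsive gene of macrophages and myeloid suppressor cells, varied most. It stood at 13.9 and 25.1 FPKM in wild type at 90 min, 49.7 and 115 in GdX-/- at 90 min, 42.6 and 98.9 in wild type at 6 h, and 329 in GdX-/- at 6 h. The wild-type libraries at 90 min were the lowest and the GdX-/- library at 6 h the highest, while GdX-/- at 90 min and wild type at 6 h overlapped. Its rank by level moved from 4429 and 3058 in the wild type at 90 min to 195 in the GdX-/- library at 6 h.

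Slfn5, a long member with nuclear functions in transcription and in restriction of viruses, was at 139 and 171 FPKM in wild type at 90 min, 212 and 179 in GdX-/- at 90 min, 80.1 and 91.4 in wild type at 6 h, and 109 in GdX-/- at 6 h. Both 90 min groups lay above both 6 h groups. Slfn8, a long member studied mainly in T-cell development, was at 65.6 and 98.4, 127 and 124, 37.4 and 71.1, and 72.6 FPKM in the same order of groups. For Slfn8 only the GdX-/- libraries at 90 min stood clear of all others.

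Slfn1, a short member first described in thymocyte growth arrest, was at 81.6 and 104 FPKM in wild type at 90 min, 110 and 98.1 in GdX-/- at 90 min, 54.3 and 97.5 in wild type at 6 h, and 96.7 in GdX-/- at 6 h. Apart from the first wild-type library at 6 h, all its libraries lay between 81.6 and 110. The 2 low members were Slfn9, a long one, and Slfn3, an intermediate one linked to T-cell activation and to differentiation of gut epithelium. Slfn9 was at 12.8 and 14.3, 18.9 and 20.4, 8.60 and 11.8, and 10.2 FPKM in the order wild type and GdX-/- at 90 min, then wild type and GdX-/- at 6 h. Slfn3 was at 4.11 and 7.34, 9.98 and 8.77, 4.02 and 9.38, and 6.21 FPKM. Slfn3 levels in the wild-type libraries at 6 h bracketed every wild-type value at 90 min, a 2.33-fold difference between replicates.

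**Figure D2:**
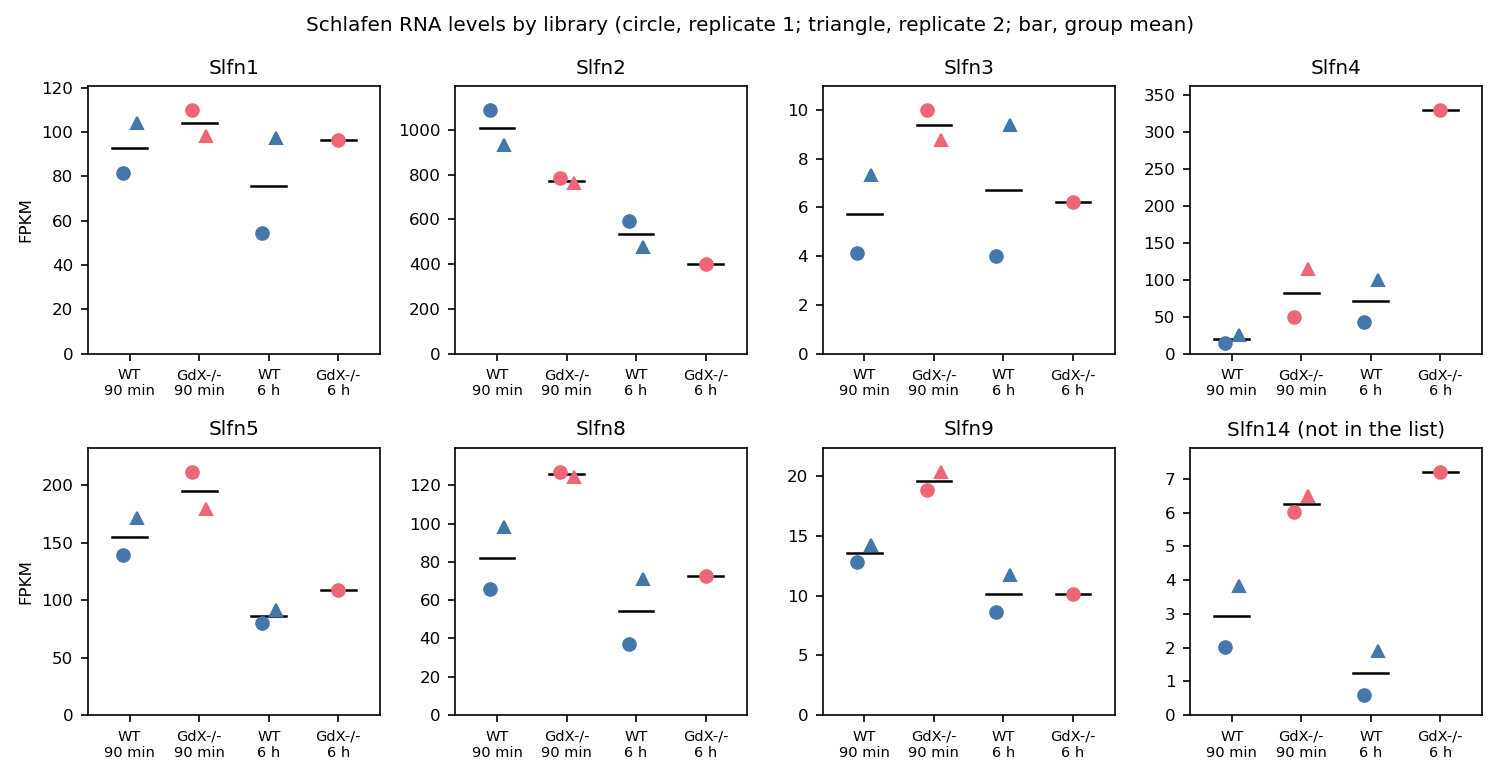
FPKM of the 7 Schlafen genes and of Slfn14 in each library (y axis, FPKM from 0; x axis, genotype and time after LPS; circle, replicate 1; triangle, replicate 2; bar, group mean). Slfn2 is highest in wild type at 90 min (1087 and 932) and lowest in GdX-/- at 6 h (402), and Slfn4 runs the other way, from 13.9 and 25.1 to 329.

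By group mean the order of levels in wild type at 90 min was Slfn2 (1010 ± 109 FPKM, SD, n = 2), Slfn5 (155 ± 22.6), Slfn1 (92.9 ± 16.1), Slfn8 (82.0 ± 23.2), Slfn4 (19.5 ± 7.93), Slfn9 (13.6 ± 1.00) and Slfn3 (5.73 ± 2.28). Slfn1 and Slfn8 overlapped, and Slfn4 overlapped Slfn9 between libraries. In the GdX-/- libraries at 90 min, Slfn5 again came after Slfn2 at 195 ± 23.1 and Slfn8 (126 ± 1.87) stood above Slfn1 (104 ± 8.35), which overlapped Slfn4 (82.3 ± 46.1). In wild type at 6 h, Slfn5 (85.7 ± 7.96) stood above Slfn8 (54.2 ± 23.9), and Slfn1 (75.9 ± 30.6) and Slfn4 (70.7 ± 39.8) overlapped both. In the single GdX-/- library at 6 h, Slfn4 came directly after Slfn2.

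The make-up of the family shifted with these levels. The 7 genes summed to 1404 and 1353 FPKM in wild type at 90 min, 1311 and 1307 in GdX-/- at 90 min, 821 and 857 in wild type at 6 h and 1026 in GdX-/- at 6 h. Without Slfn4 the 6 h sums were 778 and 759 in wild type and 697 in GdX-/-, so the higher total of the GdX-/- library at 6 h was carried by Slfn4. Slfn4 made up 0.988% and 1.85% of the sum in wild type at 90 min, 3.79% and 8.79% in GdX-/- at 90 min, 5.19% and 11.5% in wild type at 6 h, and 32.1% in GdX-/- at 6 h. Slfn2 made up between 55.7% and 77.4% in the other 6 libraries and 39.2% in that one. The ratio of Slfn2 to Slfn4 accordingly ran from 78.4 and 37.2 in wild type at 90 min to 1.22 in GdX-/- at 6 h.

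**Figure D3:**
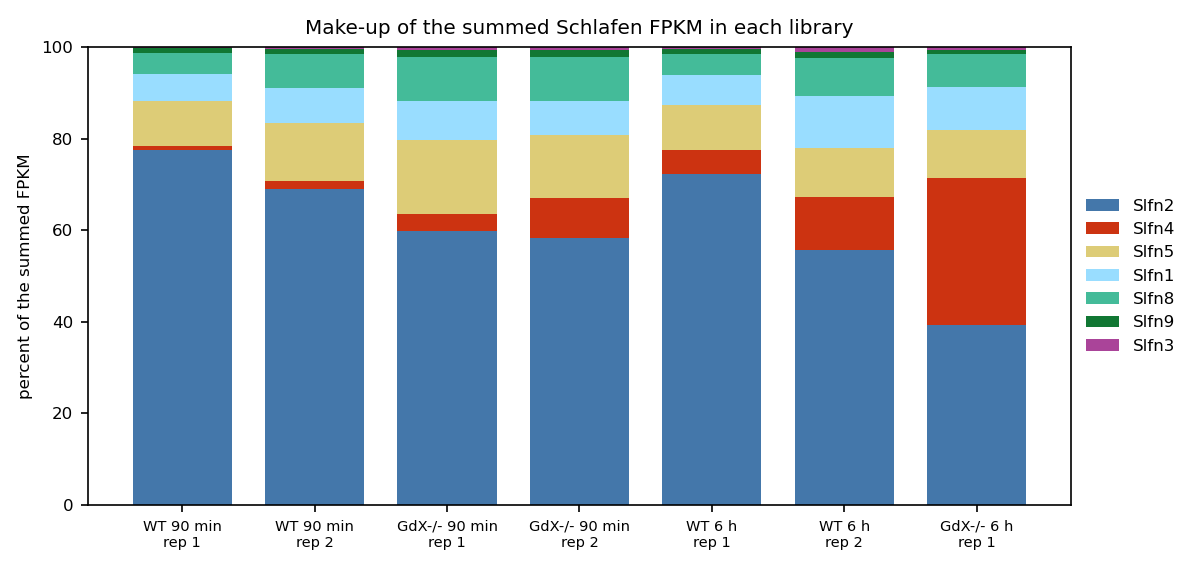
Share of each Schlafen gene in the summed FPKM of the 7 (y axis, percent; 1 bar per library). The Slfn4 segment is 0.988% and 1.85% in wild type at 90 min and 32.1% in the GdX-/- library at 6 h, where Slfn2 is down to 39.2%.

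Between genotypes at 90 min, 5 members were higher in both GdX-/- libraries than in both wild-type ones (Slfn3, Slfn4, Slfn5, Slfn8 and Slfn9), and Slfn2 was lower in both. Over all genes tested, 24.1% were higher and 23.4% lower without overlap, and since the family was chosen on these values nothing is read from its count. Slfn4 differed most, with a log2 difference of 1.96 (1.98-fold to 8.28-fold over the 4 pairs of libraries) and ranked 15 from the top among the 11378 genes. It was the only member at least 2-fold apart without overlap, which held for 1.66% of all genes upwards and 1.53% downwards. Slfn3 differed by 0.67, Slfn8 by 0.64, Slfn9 by 0.50 and Slfn5 by 0.33 on the log2 scale, Slfn2 by -0.38, and Slfn1, whose libraries overlapped, by 0.17. With the trend with transcript length removed, Slfn5 was at 0.04 and Slfn9 at 0.22, and after quantile normalization Slfn5 was at 0.56. Without the first wild-type library at 90 min, Slfn3 was at 0.31, Slfn8 at 0.35 and Slfn5 at 0.18, and without the second, at 1.02, 0.93 and 0.48. The members' median was 0.50 against 0.07 for all genes.

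At 6 h the single GdX-/- library has no replicate. It lay above both wild-type libraries for Slfn4, Slfn5 and Slfn8 and below both for Slfn2, while Slfn1, Slfn3 and Slfn9 lay between the wild-type pair. Of all genes, 54.9% lay above and 25.3% below, with a median log2 difference of 0.32 that was -0.02 after quantile normalization, so values at 6 h are to be read against that shift. Slfn4 had a log2 difference of 2.32, or 2.01 above the median, and was 3.33-fold and 7.73-fold over the wild-type libraries. It was again the one member past 2-fold, as 16.5% of all genes were upwards and 5.47% downwards. Slfn5 (0.34), Slfn8 (0.48) and Slfn1 (0.40) stood within 0.17 of the median of all genes on this scale, but depended on the scaling. After quantile normalization they were at 0.61, 0.59 and 0.58, and Slfn5 turned to -0.25 once the trend with transcript length was removed from each library. Slfn2 had a log2 difference of -0.40, which was -0.72 relative to the median of all genes, -0.47 with the length trend removed and -0.01 after quantile normalization, and Slfn9 (0.01) and Slfn3 (-0.00) stood at -0.31 and -0.32 relative to the median of all genes. After quantile normalization Slfn9 was at -0.39 and Slfn3 at -0.51, and Slfn9 was at -0.57 with the length trend removed. The members' median was 0.34 against 0.32 for all genes, and after quantile normalization the middle one of the 7 members was Slfn1 at 0.58 against -0.02.

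The genotype comparisons at 90 min and at 6 h used separate libraries. Slfn4, Slfn5 and Slfn8 were on the higher side without overlap at both times, where 19.0% of all genes were, although with the length trend removed the 6 h direction was lost for Slfn5 and the 6 h difference of Slfn8 came to 0.07. Without the first wild-type library at 6 h that difference of Slfn8 was 0.03. Slfn2 was on the lower side at both, as were 13.0% of all genes. Whether the genotype difference of any member changed between 90 min and 6 h was not tested.

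**Figure D4:**
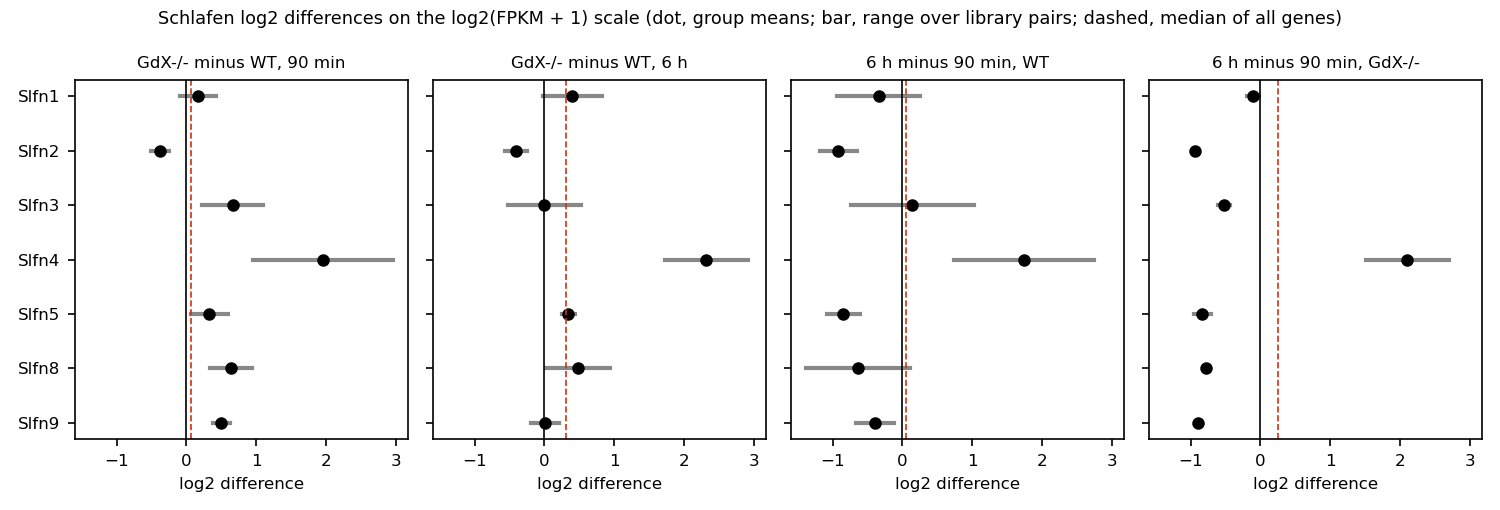
Log2 differences of the 7 Schlafen genes in the 4 comparisons (x axis, difference of group means of log2(FPKM + 1); dot, group means; grey bar, lowest to highest pair of libraries; dashed line, median of all genes tested). Slfn4 lies at 1.96, 2.32, 1.74 and 2.11 from left to right and Slfn2 at -0.38, -0.40, -0.92 and -0.94; at 6 h between genotypes Slfn2 is -0.01 after quantile normalization.

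Between 90 min and 6 h in wild type, Slfn2, Slfn5 and Slfn9 were lower at 6 h without overlap and Slfn4 was higher, while Slfn1, Slfn3 and Slfn8 overlapped. Of all genes 30.3% were higher and 27.6% lower without overlap. Slfn4 differed by 1.74 on the log2 scale (1.70-fold to 7.13-fold over the pairs of libraries) and was the one member at least 2-fold apart, as were 5.62% of all genes upwards and 8.07% downwards. Slfn2 differed by -0.92, Slfn5 by -0.84, Slfn8 by -0.63, Slfn9 by -0.39, Slfn1 by -0.34 and Slfn3 by 0.15. The last 4 of these depended on 1 library: without the first wild-type library at 6 h, Slfn8 was at -0.17, Slfn9 at -0.19, Slfn1 at 0.08 and Slfn3 at 0.67, and without the second, Slfn8 was at -1.09, Slfn9 at -0.60, Slfn1 at -0.75 and Slfn3 at -0.38. The members' median was -0.39 against 0.05 for all genes.

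In the GdX-/- mice the 6 h library lay below both 90 min libraries for 6 members and above both for Slfn4. Of all genes 15.8% lay below and 56.8% above, with a median of 0.25 that was 0.02 after quantile normalization. Slfn4 was 6.63-fold and 2.87-fold over the 90 min libraries, a log2 difference of 2.11, and was the one member past 2-fold before any rescaling, as were 4.09% of all genes upwards and 1.64% downwards. Slfn2 differed by -0.94, Slfn9 by -0.89, Slfn5 by -0.83, Slfn8 by -0.78 and Slfn3 by -0.52, and Slfn1 by -0.10, with a members' median of -0.78. Relative to the median of all genes Slfn2 (-1.19), Slfn9 (-1.14), Slfn5 (-1.08) and Slfn8 (-1.04) were past 2-fold too. With the length trend removed these were at -1.20, -1.14, -1.09 and -1.05. After quantile normalization Slfn9 was at -1.25, while Slfn2 (-0.80), Slfn5 (-0.87) and Slfn8 (-0.90) fell short of 2-fold. The time comparisons in the 2 genotypes also used separate libraries. Slfn4 was higher at 6 h in both, as 24.0% of all genes were, and Slfn2, Slfn5 and Slfn9 were lower in both, as 9.60% were.

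Because Slfn4 is a myeloid gene, its levels are set beside markers of myeloid cells. The 7 neutrophil markers summed to 1070 and 685 FPKM in wild type at 90 min, 993 and 4710 in GdX-/- at 90 min, 1067 and 747 in wild type at 6 h and 2601 in GdX-/- at 6 h, and none was at 0. At 6 h all 7 were at least 2-fold higher in the GdX-/- library, outside the wild-type pair, as 16.5% of all genes were. At 90 min all 7 had a higher mean in GdX-/-, but only 3 without overlap, against 24.1% of all genes. The 6 markers of monocytes and macrophages summed to 181 to 231 in wild type and 199 and 218 in GdX-/- at 90 min, and to 136 and 154 in wild type and 373 in GdX-/- at 6 h, where all 6 were at least 2-fold higher, again against 16.5% of all genes.

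S100a8 and S100a9 made up 86.1% to 93.2% of the neutrophil sum. In the first GdX-/- library at 90 min that sum (993) lay within the wild-type range, as did the sum of the other 5 markers (94.7 against 70.9 to 103). Of the single markers, S100a8 (440 against 438 and 292), Csf3r (20.8 against 10.03 and 15.9) and Mmp8 (7.26 against 6.99 and 5.11) lay above both wild-type libraries of that time there. In that library Slfn4 was 1.98-fold and 3.58-fold over the wild-type libraries of that time. In wild type the neutrophil sums at 6 h (1067 and 747) were close to those at 90 min (1070 and 685), although single markers differed: Mmp8 (10.03 and 12.9) and Cxcr2 (9.10 and 8.40 against 7.33 and 5.41) were higher at 6 h without overlap and Retnlg (36.9 and 25.5 against 76.0 and 48.0) was lower. The monocyte and macrophage sums were lower at 6 h in wild type, with 5 of the 6 markers lower by mean. Itgam went the other way, higher at 6 h without overlap (5.50 and 10.02 against 3.81 and 4.51). In the first GdX-/- library at 90 min Itgam (5.32) lay above both wild-type libraries, and Ly6c2 (70.5) and Ccr2 (2.77) lay below both. Slfn4 was higher at 6 h in every wild-type pair. The neutrophil sum was high together with Slfn4 in the GdX-/- library at 6 h and in the second one at 90 min, and its part in those values was not tested. Without the second GdX-/- library at 90 min the genotype difference of Slfn4 at that time was 1.36 on the log2 scale, and without the first it was 2.56. In whole spleen, fewer cells of a type and less RNA per cell cannot be told apart.

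**Figure D5:**
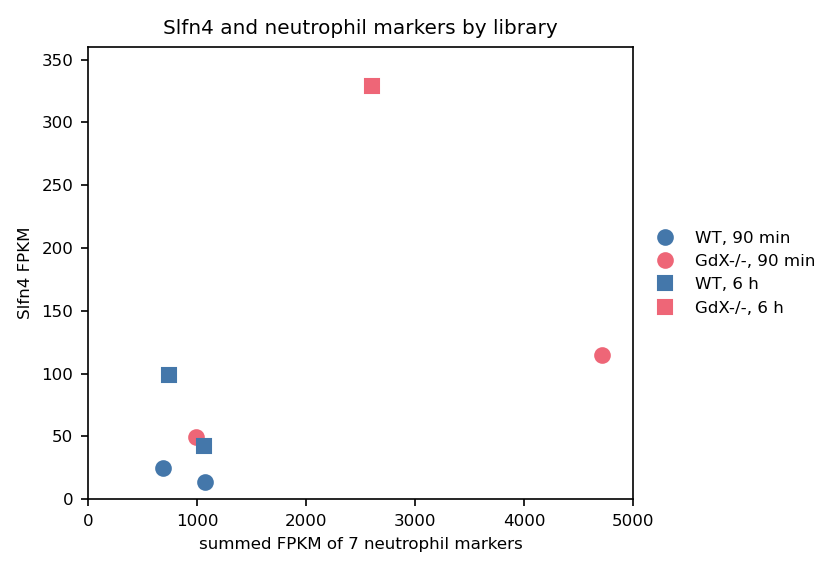
Slfn4 FPKM (y axis) against the summed FPKM of 7 neutrophil markers (x axis), 1 point per library. The first GdX-/- library at 90 min has a marker sum of 993, inside the wild-type range of 685 to 1070, and a Slfn4 level of 49.7, while the other GdX-/- libraries are high in both.

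Slfn2 was set beside T-cell markers and genes that hold lymphocytes in quiescence. The 5 T-cell markers with a value summed to 265 and 215 FPKM in wild type at 90 min, 188 and 230 in GdX-/- at 90 min, 116 and 90.6 in wild type at 6 h, and 204 in GdX-/- at 6 h. In wild type 3 of the 5 fell from 90 min to 6 h (limma, adjusted p under the threshold), among them Cd4 (log2 difference -1.39 ± 0.30 SE, adjusted p = 0.0206). In that comparison 4.39% of all genes rose and 6.32% fell. The GdX-/- library at 6 h had a T-cell sum above both wild-type libraries of that time and the lowest Slfn2 of all 7. Of 8 quiescence regulators, 2 fell in wild type with time, Btg2 (-2.24 ± 0.23, adjusted p = 0.00131) and Btg1 (-1.16 ± 0.26, adjusted p = 0.0244), both antiproliferative factors. Btg2 was at 22.9 and 23.2 FPKM in wild type and 77.8 in GdX-/- at 6 h, on the opposite side from Slfn2.

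The type I interferon pathway was taken as a list of 13 ligand, receptor and signalling genes, all tested. In wild type Ifnb1, the gene of interferon beta, fell from 12.1 and 5.68 FPKM at 90 min to 0.39 and 0.20 at 6 h (log2 difference -2.86 ± 0.63 SE, limma, adjusted p = 0.0223), and no other gene of the list passed. Before adjustment 5 of the 13 reached p under 0.05, as 28.7% of all genes did. Ifnb1 was at 4.29 and 0.07 in the GdX-/- libraries at 90 min and at 0.27 in the one at 6 h. Between genotypes at 90 min none of the 13 passed limma's adjusted threshold, and 2 reached p under 0.05 before adjustment, as 7.58% of all genes did. Over all genes 0.0176% rose and 0% fell in that comparison.

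Of 21 interferon-stimulated genes 19 had a value, and with time in wild type 3 rose and 2 fell, where 4.39% of all genes rose and 6.32% fell. Oasl2 (1.24 ± 0.33 SE, adjusted p = 0.0422), Zbp1 (1.22 ± 0.29, adjusted p = 0.0314) and Oas1a (1.15 ± 0.30, adjusted p = 0.0423) rose, and Ifit1 (-1.79 ± 0.25, adjusted p = 0.0048) and Ifit3 (adjusted p = 0.0341) fell, all by limma. Ifit3 was at 576 and 594 FPKM at 90 min and 281 and 303 at 6 h. Isg15, an interferon-induced ubiquitin-like modifier, was at 853 and 912 FPKM in wild type at 90 min and 1200 and 820 at 6 h. Between genotypes at 90 min none of the 19 passed limma's test and 3 reached p under 0.05 before adjustment, again against 7.58% of all genes. The list medians were 0.28 at 90 min and 0.16 at 6 h between genotypes (0.07 and 0.32 for all genes), and 0.17 with time in wild type and -0.54 with time in GdX-/- (0.05 and 0.25 for all genes).

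Across the 7 libraries the 3 long members of the list had the highest correlations with each other. Pearson's r of log2(FPKM + 1) was 0.927 between Slfn8 and Slfn9, 0.908 between Slfn5 and Slfn9 and 0.893 between Slfn5 and Slfn8, and it was 0.891 between Slfn1 and Slfn8, 0.811 between Slfn1 and Slfn3 and 0.799 between Slfn3 and Slfn8. Slfn14 had an r of 0.834 with Slfn8, 0.690 with Slfn5 and 0.641 with Slfn9. Slfn4 and Slfn2 ran in opposite directions (-0.857), and Slfn4 had no like member (0.387 with Slfn3, its neighbour and nearest relative). With Slfn14, which is outside the list, Slfn4 had an r of 0.499. These are descriptions over 7 points that share genotype, time and library effects. In both wild-type groups the second library was the higher of the pair for 6 members and the lower for Slfn2.

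The genes most like each member over the 7 libraries were picked from 11001 others by the same r. For Slfn4 they were Ctc1, a telomere maintenance gene (0.992), Fanca of the Fanconi anaemia DNA repair pathway (0.990) and Mocs1 of molybdenum cofactor synthesis (0.989). Fanca moved over a much smaller range, from 1.98 and 2.55 FPKM in wild type at 90 min to 8.88 in GdX-/- at 6 h. For Slfn5 they included the interferon-induced antiviral gene Rsad2 (0.986) and Gch1 (0.981). For Slfn8 they were Tnfsf10, which encodes the death ligand TRAIL (0.992), the antiviral zinc-finger gene Zc3hav1 (0.988) and the interferon-inducible GTPase gene Irgm2 (0.988). Slfn9 was most like Trim25 (0.952), Xlr3b (0.950) and Trim21 (0.950). Rsad2 was at 261 and 332 FPKM in wild type at 90 min, 448 and 379 in GdX-/- at 90 min, 154 and 173 in wild type at 6 h and 244 in GdX-/- at 6 h, the order of groups seen for Slfn5. Slfn1 was most like Srp54c, Tlr7 and Dennd5a (0.994, 0.994 and 0.990), Slfn3 like Kri1, Casp8 and Vps37b (0.979, 0.978 and 0.975), and Slfn2 like Hbb-bt, Top1 and Bcl2a1a (0.991, 0.987 and 0.982).

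Near-identical copies limit some of these values. Of the 50-base windows of the Slfn3 transcript, 23.7% also occurred in another gene, most of them in Slfn4 (14.3% of its windows), and the share was 15.4% for Slfn8 and 11.9% for Slfn9, most with the pseudogene Slfn10-ps. It was 11.6% for Slfn4, 4.3% for Slfn2 and 0.6% for Slfn1. For Slfn5 it was 11.8%, most with the overlapping antisense gene Slfn5os. Slfn3 and Slfn4 kept separate values: the ratio of Slfn4 to Slfn3 ran from 3.37 to 53.0, and Slfn3 was at 6.21 FPKM where Slfn4 was at 329. The ratio of Slfn8 to Slfn9 stayed between 4.34 and 7.15. How the authors' counting divided fragments shared by copies, or by a gene and its antisense partner, is not given in the sources used here, so Slfn3, Slfn4, Slfn5, Slfn8 and Slfn9 are uncertain to that extent.

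Slfn14, the long member at the end of the cluster known for its ribonuclease activity in red cell precursors and platelets, was not in the list. It was at 2.03 and 3.82 FPKM in wild type at 90 min, 6.03 and 6.50 in GdX-/- at 90 min, 0.58 and 1.89 in wild type at 6 h, and 7.21 in GdX-/- at 6 h. The GdX-/- libraries were above the wild-type ones at both times, with log2 differences of 0.93 and 1.94. The 5 erythroid markers lay on the same side between genotypes: they summed to 509 and 579 FPKM in wild type and 1172 and 966 in GdX-/- at 90 min, and to 166 and 236 in wild type and 561 in GdX-/- at 6 h, with 5 of 5 higher without overlap at both times, against 19.0% of all genes. In wild type all 5 fell with time by limma, against 6.32% of all genes. In GdX-/- mice all 5 were lower at 6 h than in both 90 min libraries (median log2 difference of -0.74, against 15.8% of all genes lower without overlap), where Slfn14 was higher (0.18). Their part in the Slfn14 values was not tested. Markers of platelets and megakaryocytes, the other cells in which Slfn14 is known, summed to 187 and 171 against 108 and 107 at 90 min and to 134 and 98.2 against 157 at 6 h.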

How the data were processed

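The authors deposited 1 table of FPKM values, with 1 column per library, per the file headers. RNA was sequenced on a BGISEQ-500 instrument, after poly(A) selection or rRNA depletion, per the labels' protocols. HISAT, HISAT2 2.0.4, Bowtie2, RSEM and the build GRCm38.p5 are named in the submitters' processing notes, with no role or order. FPKM is not a count, so no count test was run, and depth was estimated from the steps of low values.

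Values were converted to log2(FPKM + 1). The 11378 genes whose mean FPKM reached 1 were fitted in 4 groups with limma 3.58.1 in R 4.3.3 (empirical Bayes with a trend, two-sided, Benjamini-Hochberg adjustment over all genes, threshold 0.05). The GdX-/- group at 6 h has 1 library, so comparisons with it have no test and no replicate check. There a gene was counted when it lay at least 2-fold away and outside the pair. The log scale understates changes of low genes. Coding identity was aligned with Biopython 1.88.

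The members and the gene lists were chosen with earlier results of these data known. Named are all members, other Schlafen genes, the 3 genes most like each member, up to 3 genes of each list with the largest difference over time in wild type, and Ifnb1, Isg15 and Ubl4a. Some genes that this rule names are not reported here. Ifit3, Oas1a, Rsad2 and Gm44504 were named after their values were seen. Also named outside the rule are S100a8, S100a9, Cxcr2, Ly6c2, Ccr2, Hbb-b1, Hbb-b2 and some genes that flank the cluster. Slfn10-ps, Slfn5os, Mx1 and Mx2 were not analysed here. Alternatives covered the pseudocount, filters, quantile normalization, replicate block, smaller and additive fits, leaving out each library, and removal of the transcript length trend, the last chosen after seeing the data.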

Additional observations from a re-analysis of the deposited data

Results flagged for a closer look

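Slfn14 lay on opposite sides with time in the 2 genotypes. From 90 min to 6 h its log2 difference was -0.84 in wild type, where both 6 h libraries lay below both 90 min ones, and 0.18 in GdX-/- mice, where the single 6 h library lay above both. In that second comparison the median of all genes was 0.25 (0.02 after quantile normalization) and 56.8% of all genes lay above both, so Slfn14 was not above the general shift. The difference between the genotypes was not tested. Its lowest level, 0.58 FPKM, rests on an estimated 44 fragments.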

How the results depend on the processing

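The count of genes called between genotypes at 90 min was 2. The count was 181 in a fit of only the 4 libraries compared, 5 in the additive fit and 0 with the transcript length trend removed. That last run kept only the 11180 genes of known transcript length. Its counts are therefore not over the same genes as the main fit, and the 0 cannot be put down to the trend alone. Leaving out 1 library gave 2 to 183, with 13 without GdX-/- replicate 1 at 90 min, 173 and 183 without wild-type replicate 1 or 2 at 6 h, and 6 and 42 without wild-type replicate 1 or 2 at 90 min. The count for time in wild type was 1218. It was 635 with no filter, 619 in the additive fit and 2423 with the length trend removed, and 450 to 1774 without 1 library, with 450 and 550 without wild-type replicate 1 or 2 at 90 min. With the replicate block the counts were 2 and 2345. Same-numbered libraries deviated together in wild type (r = 0.768) but not between genotypes (-0.120 and 0.0797), so the numbers were not taken as pairs.

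Between genotypes at 6 h, 2501 genes were past 2-fold (1879 higher, 622 lower), with 1832 after quantile normalization (951 higher, 881 lower), 1867 with the length trend removed (929 and 938), and 1887 to 3830 without 1 library, the last without wild-type replicate 2. Over time in GdX-/- mice, 652 were past 2-fold (465 and 187), with 1033 at a pseudocount of 0.1, 421 at a mean FPKM of at least 5, 587 after quantile normalization (262 and 325), 556 with the length trend removed (220 and 336) and 585 to 1336 without 1 library, the last without GdX-/- replicate 2 at 90 min. The causes were not tested.

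Of the 28 member differences, 4 were past 2-fold without overlap, all of Slfn4. The number was 9 with the length trend removed, 6 after quantile normalization and 4 to 6 without 1 library. Slfn4 ranged from 1.36 to 2.56 and from 1.73 to 2.92 between genotypes, and from 1.15 to 2.34 and from 1.51 to 2.70 with time. In 21 of the 28 the sign held in every alternative run, and it changed for Slfn1, Slfn3, Slfn5 and Slfn9 in the other 7. With 1 or 2 libraries a group, differences below the spread between replicates were not detectable.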

Other observations

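Genes that flank the cluster on chromosome 11 were read by position, the 5 with a value nearest on each side. Nle1, a ribosome biogenesis gene before Slfn5, was at 30.4 and 38.8 FPKM in wild type at 90 min, 34.2 and 15.6 in GdX-/- at 90 min, 58.8 and 64.5 in wild type at 6 h and 18.6 in GdX-/- at 6 h. Its GdX-/- library at 6 h lay below both wild-type ones. Of the 6 flanking genes tested, 2 lay below both wild-type libraries at 6 h and 4 above both, against 25.3% and 54.9% of all genes. Rffl, before Slfn5, was among those above, at 11.9 FPKM against 5.16 and 10.2. Fndc8, Unc45b, Rasl10b and Gas2l2 were all under 1 FPKM. Slfnl1, a Schlafen-like gene on chromosome 4, was between 0 and 0.08 FPKM.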
